A study of Mus musculus with 20 samples.

Results

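A set of 10 genes of the class I antigen presentation pathway was followed through mouse brain after 2 treatments. They were chosen by symbol and are H2-D1, H2-K1, H2-T23, H2-Q4, B2m, Tap1, Tap2, Tapbp, Erap1 and Nlrc5. All 10 were found among 55487 rows of the prefrontal cortex (PFC) count table and among 57180 rows of the hippocampal (HPC) table. The animals were wild-type C57/BL6 mice aged 2 to 6 months. In the PFC experiment, males received either 5 mg/kg lipopolysaccharide (LPS, an endotoxin of Gram-negative bacteria) or 0.9% saline by the intraperitoneal route, with 4 libraries per group. In the HPC experiment, mice received 0.2 mg/kg nicotine or 0.9% saline, with 6 libraries per group, and the sex of the animals and the route are not given in the labels. Tissue was taken 24 h after treatment in both, and poly(A) RNA of the whole dissected tissue was sequenced. PFC and HPC were separate batches, so tissue and batch cannot be told apart.

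Class I molecules display peptides from inside the cell at its surface, where CD8 T cells and natural killer cells read them. Each is a heavy chain, encoded in the H2 complex, paired with the invariant light chain B2m. Proteasomes cut proteins into peptides, the transporter made of TAP1 and TAP2 carries them into the endoplasmic reticulum, the aminopeptidase ERAP1 trims them, and tapasin (Tapbp) holds the empty heavy chain next to the transporter until a peptide binds. NLRC5 is a nuclear transactivator of these genes, and interferons are the best known inducers of the pathway. In the healthy brain, class I molecules are found at low levels, and neuronal class I has also been linked to synapse remodelling.

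The heavy chain genes are close relatives, which matters for how their counts are read. The longest run of coding sequence that the reference transcripts of H2-D1 and H2-K1, the classical molecules, have in common is 91 bases, and the 2 coding sequences are 91.1% identical over 1080 aligned bases. H2-D1 and the non-classical H2-T23 (which encodes Qa-1) are 80.9% identical, yet have a common run of 145 bases. These runs, read from the GENCODE vM21 annotation (GRCm38), are shown because a short read that falls within them cannot be assigned to 1 gene:
H2-D1 and H2-K1, 91 bases: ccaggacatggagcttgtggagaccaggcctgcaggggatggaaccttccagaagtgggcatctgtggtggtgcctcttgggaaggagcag
H2-D1 and H2-T23, 145 bases: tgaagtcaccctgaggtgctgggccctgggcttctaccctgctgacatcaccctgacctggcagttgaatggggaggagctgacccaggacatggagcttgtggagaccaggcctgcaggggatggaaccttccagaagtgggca
Of all distinct 50-base words in its transcripts, H2-Q4 had 36.4% in common with another annotated gene on either strand, H2-T23 had 14.5%, H2-D1 had 12.8% and H2-K1 had 9.63%. With 100-base words these shares were 14.1%, 3.15%, 3.59% and 0.957%. B2m had none at either length. The value of a single heavy chain gene is therefore less certain than that of B2m or of the heavy chain sum given further on, because how reads with several matches were counted is not given in the sources used here.

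The stretches upstream of 5 members are shown because class I promoters are the textbook example of a compact immune enhancer. RefSeq promoter windows (GRCm38.p6) were matched for 8 of the 10 members. Of the 250 bases before the start in each window, 3 short motifs were searched on both strands: a kB-type motif GGGNNTTCC, an interferon regulatory factor (IRF) core AANNGAAA, and the TGACG core of the cyclic AMP response element. A gamma-activated sequence TTCNNNGAA was searched as well. The 5 members printed are those whose window held a kB-type motif or an IRF core. Tap1, Tapbp and Erap1 had windows with neither and are not printed, although they rose in PFC as well. Capitals mark every match within the printed 100 bases:
H2-D1, chr17:35262913-35263012, plus strand: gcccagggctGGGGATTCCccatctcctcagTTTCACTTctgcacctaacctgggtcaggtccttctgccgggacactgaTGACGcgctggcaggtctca
H2-K1, chr17:34000369-34000468, minus strand: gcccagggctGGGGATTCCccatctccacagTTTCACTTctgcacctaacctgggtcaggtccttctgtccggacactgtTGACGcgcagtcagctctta
H2-Q4, chr17:35379434-35379533, plus strand: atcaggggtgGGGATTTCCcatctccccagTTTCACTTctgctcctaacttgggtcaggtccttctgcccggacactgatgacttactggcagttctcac
H2-T23, chr17:36032736-36032835, minus strand: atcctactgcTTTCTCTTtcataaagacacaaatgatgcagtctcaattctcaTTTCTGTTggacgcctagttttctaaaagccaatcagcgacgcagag
B2m, chr2:122147540-122147639, plus strand: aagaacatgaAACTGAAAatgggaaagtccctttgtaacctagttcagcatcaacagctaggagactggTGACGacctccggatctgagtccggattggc
The stretches of H2-D1 and H2-K1 were identical at 92 of 100 bases. H2-D1, H2-K1 and H2-Q4 each held the kB-type motif, the IRF core on the opposite strand and TGACG, although in H2-Q4 the TGACG lay past the printed stretch, 73 to 69 bases before the start. All 3 motifs occurred together in 64 of 32851 annotated windows (0.195%), and the kB-type motif with the IRF core in 341 (1.04%). Windows of H2-D1, H2-K1 and H2-Q4 are among these, and as close relatives the 3 genes are not independent cases. Alone, the kB-type motif was found in 4.98% of windows, the IRF core in 21.3%, TGACG in 17.8% and the gamma-activated sequence in 7.02%. B2m held an IRF core and TGACG, H2-T23 held 2 IRF cores, and Tap1 held TGACG. Tapbp and Erap1 had no match to any of the 4, and no member window held the gamma-activated sequence. These are matches of letters, and the series holds no measurement of factor binding.

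Before the results, the labels need a word. In 4 of the 8 PFC records, title and treatment field give the opposite treatment to the name of the count column, and the groups here follow the count column. As a check of that choice, Lcn2, an acute-phase gene known to be induced by LPS, averaged 4.12 ± 6.27 (SD, n = 4) CPM (counts scaled to a library of 1000000) in the saline libraries and 298 ± 48.1 in the LPS libraries. A single saline library stood apart at 13.5 CPM, against a saline median of 1.15 CPM, and the LPS libraries ran from 254 to 367 CPM. Library totals ran from 36371084 to 46106526 counts in PFC and from 51969343 to 68196280 in HPC. All CPM values were scaled by the trimmed mean of M-values (TMM). Tests were edgeR quasi-likelihood tests with Benjamini-Hochberg adjustment over all genes of the tissue, and a gene is called changed at an adjusted p under 0.05. Only the replicate labels and a different number in each count column name bear on whether libraries came from separate animals. What these numbers stand for is not given in the sources used here, so a p-value here reflects only how these libraries spread.

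After LPS, all 10 class I pathway genes rose in PFC, and for each of them every LPS library lay above every saline library. LPS changed much of the transcriptome: of the 17760 genes tested, 21.5% were called higher and 19.7% lower, and 19.2% had every LPS library above every saline library. The changes were far from equal. Tap1 and Nlrc5 rose about as much as each other, 9.52-fold and 9.03-fold, and H2-Q4 rose 5.50-fold. The other 7 rose between 1.87-fold (B2m) and 2.39-fold (Tap2). The median log2 fold change was 1.16 over the 10 members and 0.01 over all genes tested. Of the 10 genes, 6 rose more than 2-fold, against 5.65% of all genes tested. In bulk tissue such as this, more or fewer cells of a type cannot be told apart from more or less RNA per cell.

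**Figure D1:**
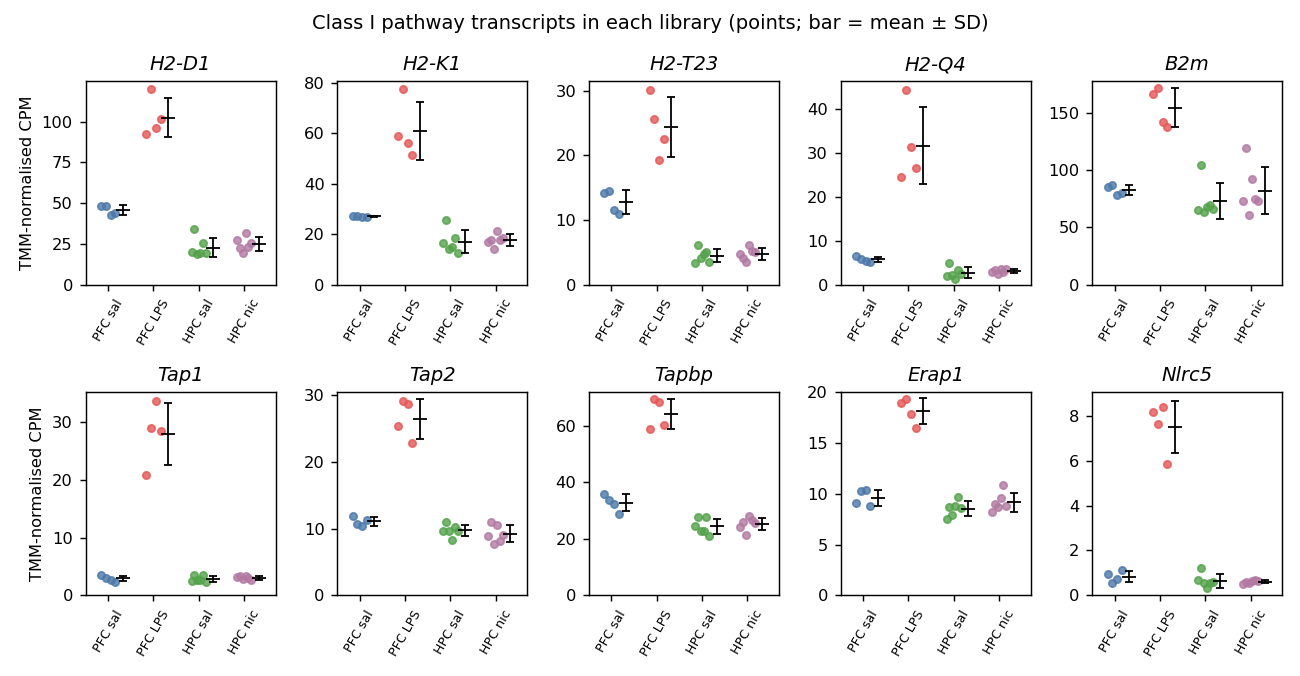
TMM-normalised CPM (y axis, starting at 0) of each of the 10 genes in every library, by group (x axis; n = 4, 4, 6 and 6). Points are libraries and the bar beside them is the mean ± SD. In PFC the LPS libraries of every gene sit above all saline libraries, while the HPC groups overlap in all 10 panels.

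Among the heavy chains, H2-D1 (chr17:35262730-35267499, plus strand) was the most abundant. It measured 48.3, 48.5, 42.6 and 44.0 CPM in saline replicates 1 to 4 and 92.3, 120, 96.0 and 102 CPM in LPS replicates 1 to 4. The lowest LPS library was thus well above the highest saline library, and the log2 fold change was 1.16 (SE 0.09, edgeR adjusted p = 5.35e-06). H2-K1 (chr17:33996017-34000347, minus strand), the other classical heavy chain of this strain, was almost constant in the saline libraries at 27.4, 27.3, 27.0 and 26.9 CPM. It spread more widely after LPS, at 59.0, 77.6, 56.2 and 51.3 CPM, and its log2 fold change of 1.17 (SE 0.12, edgeR adjusted p = 3.02e-05) was close to that of H2-D1.

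H2-T23 encodes Qa-1, a non-classical molecule that presents a narrow set of peptides to the CD94/NKG2 receptors of natural killer cells. The gene (chr17:36029773-36032855, minus strand) measured 14.2, 14.5, 11.6 and 10.9 CPM in saline and 30.2, 25.6, 19.3 and 22.5 CPM in LPS libraries. The gap between 14.5 and 19.3 CPM was narrower, relative to the level, than for the other heavy chains. Its log2 fold change was 0.93 (SE 0.15, edgeR adjusted p = 0.000555), and it was 0.54 (adjusted p = 0.0171) in the 4 libraries whose labels agree. H2-Q4, a Qa-region class I gene (chr17:35379617-35385290, plus strand), was scarce in saline, at 6.46, 5.90, 5.39 and 5.23 CPM. It reached 24.5, 44.1, 31.3 and 26.5 CPM after LPS, a log2 fold change of 2.46 (SE 0.18, edgeR adjusted p = 3.14e-06). H2-Q4 is also the member with the largest share of sequence in common with other genes, 9.68% of its 50-base words with H2-Q6 and 15.3% with the predicted antisense gene Gm11131.

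The light chain B2m (chr2:122147686-122153083, plus strand) was the most abundant member in every group. It measured 84.9, 86.9, 78.4 and 80.1 CPM in saline and 166, 172, 142 and 138 CPM in LPS libraries. Its log2 fold change, 0.90 (SE 0.08, edgeR adjusted p = 2.06e-05), was the smallest of the 10. LPS replicates 1 and 2 were the highest for B2m, whereas replicate 1 was the lowest for H2-D1 and H2-Q4.

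Summing 29 class I heavy chain genes of the H2 complex makes the value independent of how reads were split among these 29. It does not cover reads left out for having several matches, or words in common with genes outside the sum, such as those of H2-T22 with the antisense A930015D03Rik (26.5% of its 50-base words) and of H2-Q4 with Gm11131. The sum was 118 ± 6.09 CPM (SD, n = 4) in saline PFC and 249 ± 33.0 CPM (n = 4) after LPS, 2.09-fold higher. The groups did not overlap, and a two-sided exact permutation test gave p = 0.0286, the smallest value that 70 arrangements allow. The 4 member heavy chains made up 76.2 to 79.1% of this sum in saline libraries and 85.8 to 89.6% in LPS libraries. The remainder was mostly H2-T22, a non-classical gene that measured 19.8 ± 1.44 CPM in saline and 18.5 ± 2.72 CPM in LPS libraries (log2 fold change -0.10, edgeR adjusted p = 0.538). Its antisense neighbour A930015D03Rik went from 18.4 ± 3.37 to 9.43 ± 2.60 CPM (-0.96, adjusted p = 0.00228). How reads common to both were counted is not given in the sources used here, so the change of H2-T22 is uncertain.

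The ratio of the heavy chain sum to B2m was nearly the same in the saline libraries, from 1.42 in replicate 4 to 1.44 in replicate 2. After LPS it was 1.44, 1.73, 1.60 and 1.67 in replicates 1 to 4. The mean thus went from 1.43 ± 0.00623 to 1.61 ± 0.124 (SD, n = 4 each), and a two-sided exact permutation test gave p = 0.0286. This difference is small and LPS replicate 1 lay only just above the saline range. The call was lost without any 1 saline replicate (exact permutation p = 0.0571 each time) and kept without any 1 LPS replicate (p = 0.0286). With so few libraries, p moves in coarse steps. The log2 change was 0.167 with all libraries and 0.164 to 0.169 without 1 saline replicate. It varied more, from 0.131 to 0.219, without 1 LPS replicate.

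**Figure D2:**
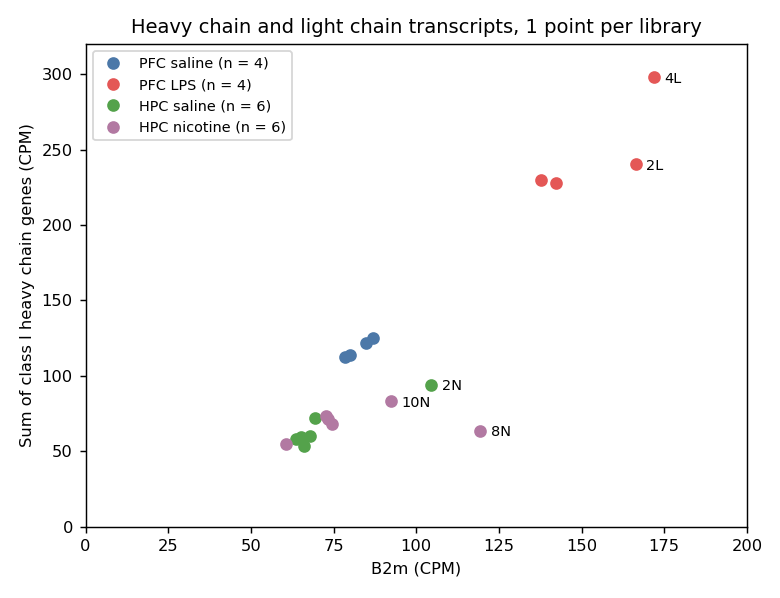
Sum of the class I heavy chain genes (y axis, CPM) against B2m (x axis, CPM) for each of the 20 libraries, coloured by group. The labels 2L and 4L mark LPS replicates 1 and 2. Both values are higher in the 4 PFC LPS libraries than in the PFC saline libraries, and the HPC nicotine library 8N has the lowest heavy chain sum for its B2m.

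The peptide transporter genes are neighbours in the H2 complex but differed in size of response. Tap1 (chr17:34187553-34197225, plus strand) measured 3.57, 3.04, 2.75 and 2.38 CPM in saline and 20.8, 28.9, 33.7 and 28.4 CPM in LPS libraries. Its log2 fold change of 3.25 (SE 0.17, edgeR adjusted p = 3.55e-07) was the largest of the 10. Tap2 (chr17:34203527-34216321, plus strand) started higher, at 11.9, 10.7, 10.4 and 11.3 CPM, and rose to 25.3, 29.1, 28.6 and 22.8 CPM. Its log2 fold change was 1.26 (SE 0.11, edgeR adjusted p = 9.30e-06). Tap1 averaged 2.93 ± 0.502 CPM against 11.1 ± 0.648 for Tap2 in saline, and 27.9 ± 5.34 against 26.4 ± 2.96 CPM after LPS (SD, n = 4 each).

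Tapbp, the gene of the loading chaperone tapasin (chr17:33915899-33929292, plus strand), measured 36.1, 33.9, 32.5 and 28.9 CPM in saline and 59.1, 69.4, 68.5 and 60.2 CPM in LPS libraries. Its log2 fold change was 0.97 (SE 0.09, edgeR adjusted p = 2.09e-05). Of its 50-base words, 20.3% lie also in the overlapping antisense gene Gm19412, which was far scarcer, at 1.61 ± 0.182 CPM in saline and 2.56 ± 0.297 CPM after LPS. Erap1, the peptide trimming enzyme (chr13:74639568-74693201, plus strand), measured 9.13, 10.2, 10.4 and 8.77 CPM in saline and 19.0, 19.4, 17.8 and 16.4 CPM in LPS libraries. Its log2 fold change was 0.91 (SE 0.10, edgeR adjusted p = 7.53e-05). The antisense neighbour Cast covers 10.7% of the Erap1 words, and the strand setting of the counting is not given in the sources used here. Cast measured 11.0 ± 0.563 and 14.6 ± 2.17 CPM, a smaller log2 change of 0.42 (edgeR adjusted p = 0.0169).

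Nlrc5, the transactivator (chr8:94434356-94527272, plus strand), was the scarcest member. The 4 saline libraries together held 138 of its counts and the 4 LPS libraries 1217. These were 0.95, 0.54, 0.72 and 1.12 CPM in saline and 8.16, 7.62, 8.38 and 5.83 CPM after LPS. The log2 fold change was 3.17 (SE 0.23, edgeR adjusted p = 3.14e-06). Its 95% interval, 2.67 to 3.67, overlapped that of Tap1, 2.88 to 3.63.

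**Figure D3:**
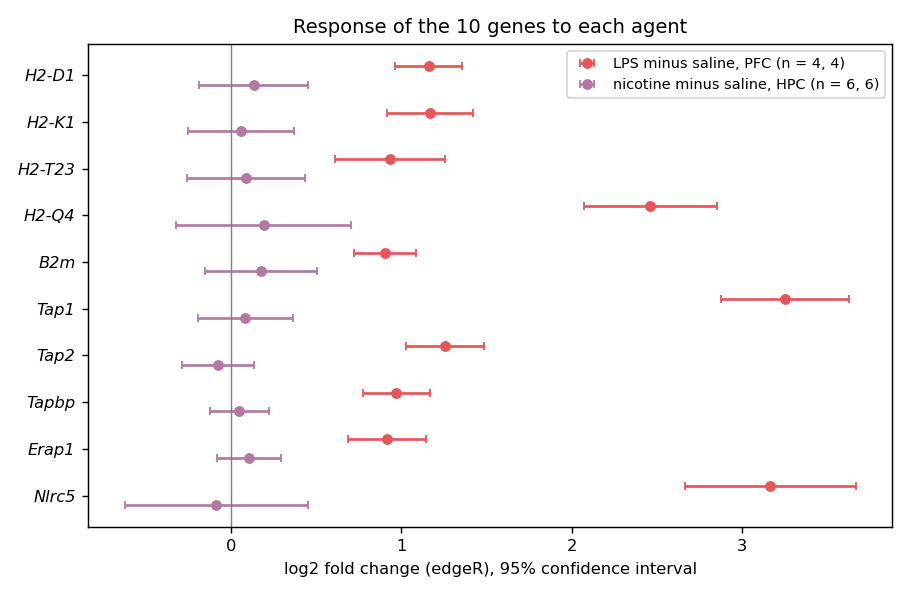
log2 fold change from edgeR with its 95% confidence interval (x axis) for each of the 10 genes (y axis), for LPS minus saline in PFC (n = 4 and 4) and nicotine minus saline in HPC (n = 6 and 6). All 10 PFC intervals lie above 0, with Tap1, Nlrc5 and H2-Q4 farthest out, and all 10 HPC intervals include 0.

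The LPS libraries were not ordered alike for all members. Replicate 2 was the highest LPS library for 7 of the 10 genes, replicate 3 for Tap1 and Nlrc5, and replicate 1 for H2-T23. Replicate 4 was the lowest for 5 genes and replicate 1 for 4, among them Tap1. All 10 genes were called higher in each of 16 other ways of processing the PFC data, including the 4 libraries with agreeing labels. Grouped by the titles instead, none of the 10 was called.

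Levels can be compared between genes only per length, so CPM was divided by the kilobases of annotated exon, joined over all transcripts of a gene. This length can exceed that of the transcripts present, unequally between genes, so the order is approximate. In saline PFC the order was B2m (96.0 CPM per kb), H2-D1 (17.8), H2-K1 (9.24), Tapbp (9.04), H2-T23 (4.43), Tap2 (2.93), H2-Q4 (2.21), Erap1 (1.32), Tap1 (0.536) and Nlrc5 (0.0978). Only H2-K1 and Tapbp overlapped as neighbours in this order. After LPS, B2m (180 CPM per kb) and H2-D1 (39.7) stayed on top, Nlrc5 (0.883) stayed last, and H2-Q4 (12.2) passed H2-T23 (8.45) and Tap2 (6.99). Tap1 (5.10) passed Erap1 (2.49). The LPS libraries of neighbouring genes overlapped all the way from H2-K1 (20.8) and Tapbp (17.7) down to Tap1.

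**Figure D4:**
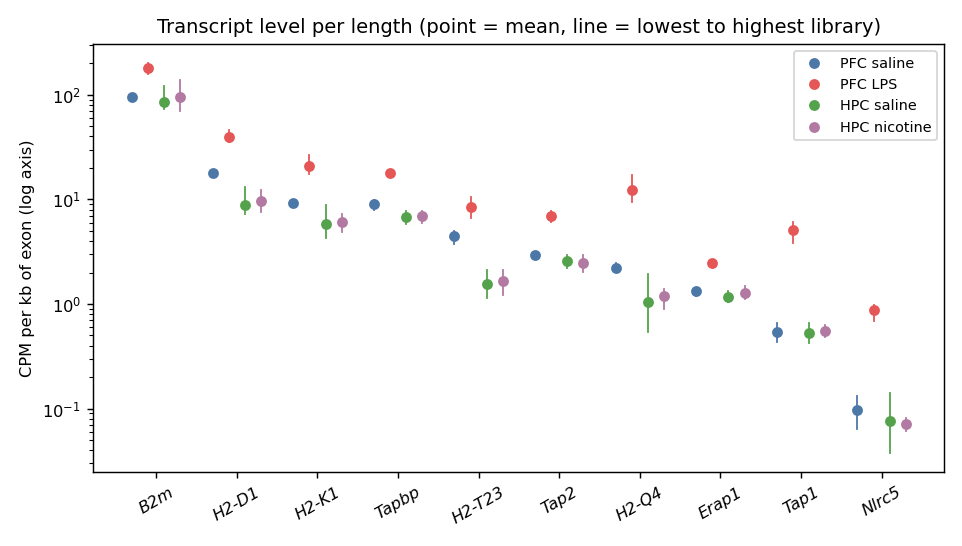
Level of each gene in CPM per kb of exon (log axis) in the 4 groups; points are group means and lines run from the lowest to the highest library. B2m leads in all 4 groups and Nlrc5 is last, and in PFC H2-Q4 and Tap1 move up the order after LPS.

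The rest of the pathway was described from 5 lists of 51 other genes, ordered by role. In PFC, 38 of them had enough counts to test, of which 18 were called higher and 7 lower, with a median log2 fold change of 0.28. Over all genes tested these shares were 21.5% and 19.7%, so the number called lower was near the background. Up to 4 genes per list are named, those with the smallest unadjusted p, and H2-Q1 is named besides.

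All 5 genes of the immunoproteasome and its activator were called higher, against 21.5% of all genes tested. Their median log2 fold change was 0.42, below the 1.16 of the members. Psmb8, a catalytic subunit exchanged into the immunoproteasome, rose from 3.74 ± 0.08 to 15.6 ± 1.26 CPM (log2 fold change 2.06, SE 0.11, edgeR adjusted p = 4.09e-07). Psmb9, which lies next to Tap1, went up from 1.48 ± 0.0894 to 3.05 ± 0.50 CPM, or 1.04 in log2. The third catalytic subunit, Psmb10, rose by a log2 of 0.42 and the activator subunit Psme1 by 0.33. With only the 4 libraries whose labels agree, Psmb10 and Psme1 were not called (adjusted p = 0.0818 and 0.121).

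Of 5 peptide loading and folding genes, 1 was called higher and 1 lower, close to the 21.5% and 19.7% of all genes tested. Lnpep, a trimming enzyme of endosomes, rose from 85.0 ± 6.27 to 112 ± 5.29 CPM (log2 fold change 0.40, edgeR adjusted p = 0.00128). Calr, the endoplasmic reticulum chaperone calreticulin, fell from 505 ± 79.8 to 308 ± 18.6 CPM (log2 fold change -0.71, edgeR adjusted p = 0.000296). Pdia3, a disulfide isomerase bound to tapasin in the loading complex, had a log2 change of -0.21 (adjusted p = 0.0699), and the tapasin relative Tapbpl 0.33 (adjusted p = 0.121). Tapbp and Calr, which act in the same loading complex, thus had changes of opposite sign.

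Of 16 other heavy chains and class I-like genes, 12 could be tested, and 2 were called higher and 3 lower. These counts were near the shares over all genes tested, 21.5% higher and 19.7% lower. H2-Q6 rose from 1.03 ± 0.306 to 3.34 ± 0.86 CPM (log2 fold change 1.70, edgeR adjusted p = 0.000621). H2-Q7, which encodes Qa-2, rose from 0.852 ± 0.0667 to 1.85 ± 0.484 CPM (1.12, adjusted p = 0.00378). H2-Q6 shares sequence with H2-Q4, as given above. Fcgrt encodes the heavy chain of the neonatal Fc receptor, which also pairs with B2m but carries antibodies in place of peptides. It fell from 19.0 ± 2.84 to 7.14 ± 0.246 CPM (log2 fold change -1.42, SE 0.13, edgeR adjusted p = 1.36e-05). Mr1, which presents vitamin B metabolites, fell from 6.32 ± 0.683 to 4.27 ± 0.381 CPM (log2 fold change -0.56, edgeR adjusted p = 0.00798), a call that the 4 libraries whose labels agree did not give (adjusted p = 0.118). The third gene called lower was a heavy chain gene of the H2 complex, H2-Q1. It was scarce and fell from 0.698 ± 0.317 to 0.270 ± 0.0410 CPM (log2 fold change -1.36, edgeR adjusted p = 0.0156).

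Among 18 regulators and interferon signalling genes, 15 could be tested, and 9 were called higher and 3 lower, with a median log2 change of 0.30. Over all genes tested the shares were 21.5% higher and 19.7% lower, so the number called lower was near the background. Irf1, a transcription factor of the interferon response, rose from 5.61 ± 0.623 to 25.5 ± 5.12 CPM (log2 fold change 2.18, SE 0.16, edgeR adjusted p = 3.22e-06). Irf9 and Stat2, which act together in the response to type I interferon, rose by log2 values of 1.34 and 1.22. The interferon genes Ifng and Ifnb1 were at 0 counts in all 8 PFC libraries at this time point. Of the 7 receptors that bind class I, only Pirb had enough counts. This inhibitory receptor, which binds class I molecules on neurons and myeloid cells, rose from 0.464 ± 0.324 to 2.46 ± 0.652 CPM (log2 fold change 2.41, SE 0.41, edgeR adjusted p = 0.000906).

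Transcripts of other cell types were read in the same libraries. Of 8 T and natural killer cell markers, only 2 could be tested and neither was called. Cd3e, Cd3d, Cd3g, Cd8a and Nkg7 had at most 12 counts per group and Ncr1 had none. Their summed level was 2.05 to 10.0 CPM in saline and 1.43 to 19.5 CPM in LPS libraries, most of it Cd4. The sum of 5 striatal markers also differed widely, from 66.4 CPM in saline replicate 1 to 453 CPM in LPS replicate 3. It ranked the PFC libraries in nearly the same order. LPS replicates 1 and 3 were highest in both, with 19.5 and 16.6 CPM against 452 and 453 CPM of striatal markers. Whether the spread in Cd4 came from differences in dissection was not tested. Of 8 neutrophil and monocyte markers, 4 could be tested, with 2 higher and 1 lower, and the sum went from 6.98 to 8.90 CPM in saline to 6.49 to 13.6 CPM after LPS. S100a8 rose from 0.701 ± 0.227 to 2.52 ± 0.799 CPM (log2 fold change 1.83, edgeR adjusted p = 0.000817). Ngp rose from 0.323 ± 0.304 to 2.05 ± 0.428 CPM (2.62, adjusted p = 0.00266). Csf3r, the most abundant of the 8, fell from 5.27 ± 0.468 to 2.91 ± 1.13 CPM (-0.85, adjusted p = 0.0132), so the sum mixes changes of opposite sign. S100a9 was tested and not called (0.64, adjusted p = 0.280), and its groups overlapped. Of the markers too scarce to test, Ccr2 had 37 counts in saline and 29 in LPS libraries. Plac8 had 15 and 47, and Camp 12 and 18. Ly6g was at 0 counts in saline and 1 in LPS libraries. The 8 microglial markers summed to 414 to 440 CPM in saline and to 256 to 304 CPM after LPS, with 6 of 8 called lower, while the class I genes rose. The 8 endothelial markers summed to 165 to 207 CPM and to 209 to 251 CPM, with 4 called higher and 1 lower. Beside these marker counts, 21.5% of all genes tested were called higher and 19.7% lower. The part of these cell types in the class I changes was not tested.

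The genes whose pattern over the 8 PFC libraries was most like the members were looked up among 14658 genes with a mean of at least 1 CPM. The measure was Pearson's r with the members' mean centred log2 level. The 5 closest were the guanylate-binding protein genes Gbp2 (r = 0.999) and Gbp5 (0.998), Steap4 (0.998), Pla1a (0.998) and Clec4a1 (0.997). Each member was compared in the same way with the mean of the others, and r ran from 0.910 for H2-T23 to 0.993 for Tap2. These 8 points fall into the 2 treatment groups, so r mainly describes that separation.

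In HPC, none of the 10 genes was called changed after nicotine, and the saline and nicotine libraries overlapped for all 10. No gene of the 18873 tested in HPC was called by edgeR (0%), although 1577 had an unadjusted p under 0.05 and DESeq2 called 16. In 0.387% of genes the groups did not overlap. The median log2 fold change of the members was 0.085. The 95% intervals are per gene and cover only the spread between these libraries. They were -0.12 to 0.22 for Tapbp and -0.08 to 0.29 for Erap1, the narrowest, and -0.62 to 0.45 for Nlrc5, the widest. For all 10 genes the upper end of the HPC interval lay below the log2 change seen in PFC after LPS, although tissue, agent and batch all differ between the experiments.

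B2m in HPC ran from 63.6 to 104 CPM in saline, with a median of 67.0, and from 60.7 to 119 CPM after nicotine, with a median of 73.9. The high end came from 1 library in each group, and the others lay between 60.7 and 92.4 CPM. H2-D1 ran from 18.6 through a median of 19.7 to 34.0 CPM in saline and from 19.4 through 24.6 to 31.6 CPM after nicotine (log2 fold change 0.13, edgeR adjusted p = 0.813). H2-K1 ran from 12.6 through 15.7 to 25.8 CPM and from 14.3 through 17.8 to 21.3 CPM (0.06, adjusted p = 0.926). The nicotine medians of these 3 genes were higher than the saline medians, but the ranges lay over each other.

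H2-T23 had medians of 4.45 CPM in saline and 4.88 CPM after nicotine (log2 fold change 0.09), and H2-Q4 had 2.30 and 3.15 CPM (0.19, 95% interval -0.32 to 0.71). Tap1 had medians of 2.66 and 3.05 CPM (0.08) and Tap2 of 9.64 and 9.00 CPM (-0.08). Tapbp had 23.7 and 25.7 CPM (0.05), Erap1 8.69 and 8.90 CPM (0.10), and Nlrc5 0.569 and 0.617 CPM. For Nlrc5 the fitted change was -0.09 although the nicotine median was higher. Saline library 2N (replicate 2) was the highest of all 12, and without it the fitted change was 0.18 (adjusted p = 0.809). None of the 36 other pathway genes tested in HPC was called, and 6 had an unadjusted p under 0.05.

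Per length, the HPC order was B2m, H2-D1, Tapbp, H2-K1, Tap2, H2-T23, Erap1, H2-Q4, Tap1 and Nlrc5 in both groups. In saline HPC, B2m stood at 84.6 CPM per kb, H2-D1 at 8.83, Tapbp at 6.74, H2-K1 at 5.82 and Tap2 at 2.57. Neighbours overlapped from H2-D1 to H2-K1 in both groups. Further down they overlapped from H2-T23 to Tap1 in saline and from Tap2 to H2-Q4 in the nicotine group. The heavy chain sum was 66.2 ± 15.0 CPM in saline and 69.1 ± 9.51 CPM after nicotine (SD, n = 6 each, two-sided exact permutation p = 0.606). Its ratio to B2m was 0.910 ± 0.0736 in saline and 0.873 ± 0.172 after nicotine (exact permutation p = 0.781). Every HPC library had a ratio below those of saline PFC, a difference that cannot be separated from batch or from the separate tables.

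The spread between HPC libraries was shared by most members rather than split by treatment. The HPC libraries are named 1N to 6N (saline replicates 1 to 6) and 7N to 12N (nicotine replicates 1 to 6) in the labels. Library 2N was the highest saline library for 9 of the 10 genes, all but Erap1. In the nicotine group library 10N was the highest for 5, and 9N was the lowest for 7. The members' mean centred log2 level, taken over the 9 members with a mean of at least 1 CPM, was 0.37 in 2N and 0.26 in 10N, and the other 10 libraries lay between -0.22 and 0.13. Libraries 2N and 10N also had the highest microglial marker sums, 518 and 501 CPM, against 345 to 412 CPM in the others, and the highest oligodendrocyte sums, 7157 and 5488 CPM. Library 2N had the lowest neuronal sum, 4728 CPM, and the lowest hippocampal neuron sum, 449 CPM. The 2 were also among the 4 HPC libraries above 1000 CPM of Ttr, a choroid plexus transcript, at 1255 and 1123 CPM. The others were 5N with 3682 CPM and 11N with 2167 CPM, whose class I levels were 0.12 and 0.05. As a description over the 12 libraries, which share tissue makeup and depth, the class I level was set against the log2 sum of each of the 13 marker lists. Pearson's r was 0.53 for microglia, and -0.47 without the 2 libraries of most extreme microglial sum, so that relation rests on those libraries. It was 0.65 for choroid plexus (0.73 without its 2 most extreme libraries), 0.61 for border macrophages (0.75), 0.66 for T and natural killer cells (0.46), 0.06 for endothelium (0.66) and -0.70 for hippocampal neurons (-0.38). The other 7 lists lay between -0.44 and 0.56 over the 12 libraries. The part of these cell types in the spread was not tested.

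**Figure D5:**
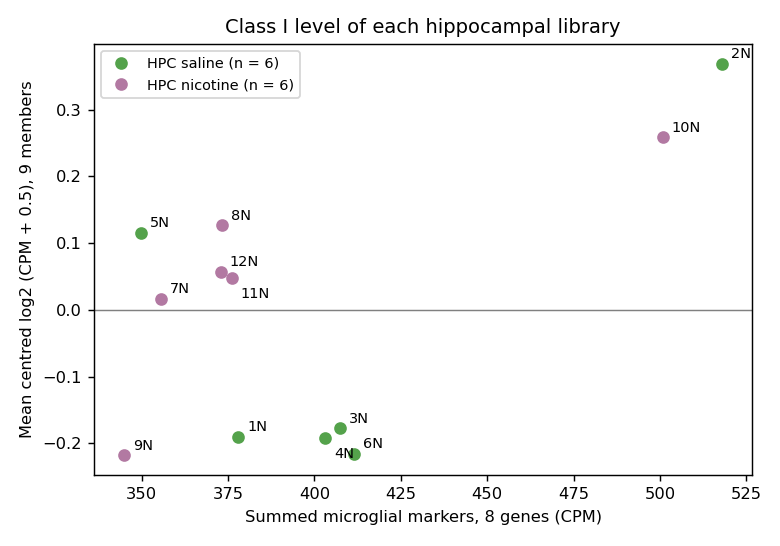
Mean centred log2 (CPM + 0.5) of 9 members (y axis) against the summed level of 8 microglial markers in CPM (x axis) for the 12 HPC libraries, coloured by group and named. Libraries 2N and 10N are at the top right and the other 10 lie between 345 and 412 CPM, with r of 0.53 over the 12 libraries and -0.47 over those 10.

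Nicotine library 8N departed from this shared pattern. Its B2m, 119 CPM, was the highest of the 12, while its heavy chain sum was 63.5 CPM, within the range of the others. The ratio of 0.532 in 8N compares with 0.813 to 1.04 in the other 11 HPC libraries. Without 8N, the difference in log2 ratio between nicotine and saline changed sign from -0.09 to 0.05 (exact permutation p = 0.437).

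In HPC the 5 genes with the pattern most like the members, of 14894 compared over 12 libraries, were Irgm2 (r = 0.935), an interferon-inducible GTPase gene, Txlnb (0.934), 1700028P14Rik (0.927), Ptn (0.918) and Trim25 (0.915). These points share depth and tissue makeup, and r describes them only. Against the mean of the other members, r was highest for H2-K1 (0.918) and H2-D1 (0.900) and lowest for Erap1 (0.387) and Tap2 (0.564). Erap1 and Tap2 thus followed the shared spread of the HPC libraries less closely than the heavy chains did. For a heavy chain, however, the mean of the other members includes other heavy chains with common sequence, so part of its higher r may be built in.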

How the data were processed

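Per the labels' protocols, RNA came from a TRIzol extraction and poly(A) libraries from a Universal Plus mRNA-Seq preparation. For each tissue the authors deposited a table of raw counts, and fastp, STAR, featureCounts, DESeq2 and build mm10 are listed in the submitters' processing notes. Annotation, strand setting and the treatment of reads with several matches were not given in the sources used here, so reads of H2 genes or of antisense neighbours may have been split between genes.

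The members, the lists and the naming rule (all members, up to 4 genes per role list by the smallest unadjusted p in PFC, and the 5 genes of most similar pattern per tissue) were chosen with earlier results of these data known, and 1 gene that the rule names is not reported here. The PFC table has symbols, of which 114 are repeated, and 51884 of 57180 HPC identifiers matched GENCODE vM21, the others holding 1.14% of counts. Each tissue was fitted alone in edgeR 4.0.16 (R 4.3.3) with filterByExpr, TMM factors and glmQLFTest, without a replicate block. The script was tested on simulated data. limma 3.58.1 and DESeq2 1.42.0 served as alternatives, beside other scalings and filters, grouping by title, and leaving out each library. The HPC replicate numbers were checked for pairing. The median 95% interval of a log2 fold change extended 0.29 (PFC) and 0.22 (HPC) to either side. No 2 libraries of a group agreed within sampling noise (lowest chi-square per degree of freedom 11.0). Likeness used log2(CPM + 0.5). Confidence intervals cover the spread between libraries.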

Additional observations from a re-analysis of the deposited data

Results flagged for a closer look

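B2m in saline HPC had 1 library far from the others of its group. Library 2N measured 104 CPM and the other 5 measured 63.6 to 69.3 CPM, so the gap was 0.859 of the whole range, above Dixon's 95% critical value for 6 libraries. It was the only one of 40 combinations of gene and group with such a gap, and chance alone gives about 1 in 20. Without 2N the log2 change of B2m after nicotine was 0.31, and it was not called (edgeR adjusted p = 0.640).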

How the results depend on the processing

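All 10 PFC members kept their direction and their call in all alternatives except grouping by title. The log2 fold change of H2-T23 ranged from 0.54 to 1.02 over them (highest adjusted p 0.0171), that of Tap1 from 3.14 to 3.37 and that of Nlrc5 from 3.00 to 3.34. Grouping PFC by title left 0 genes, 0 members and 0 other pathway genes called. The heavy chain sum then changed by a log2 of -0.17 (exact permutation p = 0.514) and its ratio to B2m by 0.0205 (p = 1). Of the members, 9 then reversed, at -0.22 (B2m), -0.12 (H2-D1), -0.25 (H2-K1), -0.39 (H2-T23), -0.25 (H2-Q4), -0.0753 (Tap2), -0.0631 (Tapbp), -0.11 (Nlrc5) and -0.11 (Erap1), while Tap1 kept its sign at 0.25. Other genes reversed to -0.24 (H2-Q6), -0.0861 (H2-Q7), 0.11 (Mr1), 0.0899 (Calr), 0.0698 (Pdia3), -0.30 (Tapbpl), -0.10 (Psmb8), -0.23 (Psmb9), -0.0762 (Psme1), -0.0562 (Psmb10) and -0.21 (Pirb), and Fcgrt (-0.15), Irf1 (0.29), Irf9 (0.0542), Stat2 (0.16) and Lnpep (0.00925) kept their sign, all with an edgeR adjusted p of 1.00. Grouping by title exchanges 4 of the 8 libraries between groups.

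Tested against a change of 1.2-fold, 3955 PFC genes and 14 pathway genes were called, a stricter question by construction. Leaving out 1 replicate, the PFC ratio changed by a log2 of 0.131 (without LPS replicate 2) to 0.219 (without LPS replicate 1). With 1 saline replicate left out the call was lost (exact permutation p = 0.0571), while the heavy chain sum kept it (p = 0.0286). In HPC, DESeq2 called 16 genes, and 1 gene was called without nicotine replicate 5 and 1 without the 4 libraries above 1000 CPM of Ttr, an alternative chosen after seeing the data. Leaving out 1 replicate, the change of the HPC ratio ran from -0.134 to 0.0506 (without nicotine replicate 2), and that of H2-K1 from -0.0140 (without saline replicate 6) to 0.213, and that of Nlrc5 was 0.0186 with limma-voom, 0.18 without saline replicate 2 and 0.12 without the libraries rich in Ttr. The causes were not tested.

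The HPC replicate numbers did not pair the libraries: 3 of 6 same-numbered pairs correlated over 0.1 (range -0.19 to 0.55). With a replicate block, 0 HPC genes and 0 members were called, and the heavy chain sum changed by 0.08 (exact permutation p = 0.656). In PFC no paired analysis was possible because titles and column names contradict each other. Depth limits Nlrc5, with 138 counts in saline PFC and 213 in nicotine HPC.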
